A study of Mus musculus with 12 samples.

Results

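The genes of the Fc gamma receptors (*Fcgr1*, *Fcgr2b*, *Fcgr3* and *Fcgr4*), of their signaling adaptor (*Fcer1g*) and of the kinase that docks on it (*Syk*) were followed across 4 populations of cells sorted from mouse GBMs. They were taken by symbol, and all 6 were among the 18180 genes of the deposited table. The populations were sorted from 3 tumors (T3, T4 and T5) as EGFR+ cells that were PDGFRA+, PDGFRA-, GAL1+ or GAL1-, giving 12 bulk RNA-seq libraries with 3 per population. The samples of all 4 populations came from the same model and were collected at end stage. Its genotype included a conditional human EGFR transgene, Cdkn2a-/- and a conditional luciferase reporter. The background was mixed from C57Bl/6J, 129S4, Balb/cJ, FVBN/J and SJL. A Cre lentivirus injected into the brain of adult mice started the tumors. The PDGFRA sort and the GAL1 sort were both made on EGFR+ cells of the same tumors, so a cell could fall in a population of either sort. The study calls these cells CD45- where it gives its results, while the antibodies its methods name for this sort are to EGFR and to PDGFR or Galectin-1.

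Fc gamma receptors are cell surface proteins that bind the constant part of IgG and so let a cell sense antibody-coated targets. *Fcgr1*, *Fcgr3* and *Fcgr4* encode activating receptors that pair with the common gamma chain encoded by *Fcer1g*, which carries an immunoreceptor tyrosine-based activation motif (ITAM). When receptors are clustered, Src family kinases phosphorylate the ITAM and SYK docks on it, which leads to phagocytosis, an oxidative burst and cytokine release. *Fcgr2b* encodes the inhibitory receptor, a single chain with an inhibitory motif that recruits the phosphatase SHIP1. In the brain these receptors are known from microglia and macrophages.

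Each of the 6 genes was highest in GAL1+ cells and lowest in GAL1- cells by its mean over the 3 tumors, with both PDGFRA sorted populations between them. The T5 PDGFRA- library stood apart from the other 2 PDGFRA- libraries. Its summed level over the 6 genes was 1477 CPM (counts scaled to library size), against 276 and 421 CPM in the other PDGFRA- libraries and 1193 to 1937 CPM in GAL1+ cells. The sums were 223 to 678 CPM in PDGFRA+ cells and 19.3 to 47.5 CPM in GAL1- cells. Reads per library, recovered from the deposited values, ranged from 9851175 to 24117541, and 3 reads were taken as the smallest detected level. That floor, which covers counting error only, lay between a log2 CPM of −2.99 and −1.44, and every value of the 6 genes was above it.

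Values below are log2 CPM in T3, T4 and T5 in that order. *Fcgr1*, the high-affinity IgG receptor, was at 6.77, 6.87 and 6.29 in GAL1+ cells, 5.08, 4.38 and 6.30 in PDGFRA- cells, 4.32, 5.52 and 4.89 in PDGFRA+ cells, and −0.17, 1.63 and 0.71 in GAL1- cells. In T5 the PDGFRA- and GAL1+ libraries lay at the same level, and the GAL1- libraries lay below every other library.

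*Fcgr3*, a low-affinity activating receptor, was at 8.41, 8.28 and 9.06 in GAL1+ cells, 6.86, 5.64 and 8.62 in PDGFRA- cells, 5.95, 6.98 and 7.57 in PDGFRA+ cells, and 2.08, 2.95 and 3.30 in GAL1- cells. *Fcgr4*, an activating receptor that binds some IgG subclasses, was at 5.91, 6.01 and 7.0 in GAL1+ cells, 4.40, 3.19 and 6.57 in PDGFRA- cells, 3.45, 4.83 and 5.31 in PDGFRA+ cells, and −0.02, −0.36 and 1.03 in GAL1- cells. For both genes the PDGFRA+ libraries lay below all GAL1+ libraries, while the T5 PDGFRA- library lay among them.

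*Fcer1g*, the gamma chain, was at 7.74, 7.82 and 8.25 in GAL1+ cells, 6.36, 5.16 and 7.88 in PDGFRA- cells, 5.46, 6.56 and 6.70 in PDGFRA+ cells, and 1.60, 2.48 and 2.38 in GAL1- cells. The inhibitory receptor *Fcgr2b* was at 7.59, 8.08 and 8.85 in GAL1+ cells, 6.10, 6.10 and 8.33 in PDGFRA- cells, 5.21, 6.48 and 7.15 in PDGFRA+ cells, and 1.37, 2.99 and 2.59 in GAL1- cells. *Fcgr2b* and *Fcer1g* had the same order of populations in each tumor as *Fcgr3* and *Fcgr4*, with GAL1+ above PDGFRA+ cells.

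*Syk* was at 8.12, 8.42 and 8.76 in GAL1+ cells, 6.63, 6.51 and 8.46 in PDGFRA- cells, 5.61, 7.14 and 7.43 in PDGFRA+ cells, and 2.93, 4.49 and 4.37 in GAL1- cells. Within each tumor GAL1+ cells held the highest level and GAL1- cells the lowest for every gene, except that *Fcgr1* in T5 was 0.0068 higher (log2) in PDGFRA- cells. PDGFRA- cells exceeded PDGFRA+ cells in T3 and T5, and PDGFRA+ cells exceeded PDGFRA- cells in T4, for all 6 genes.

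**Figure D1:**
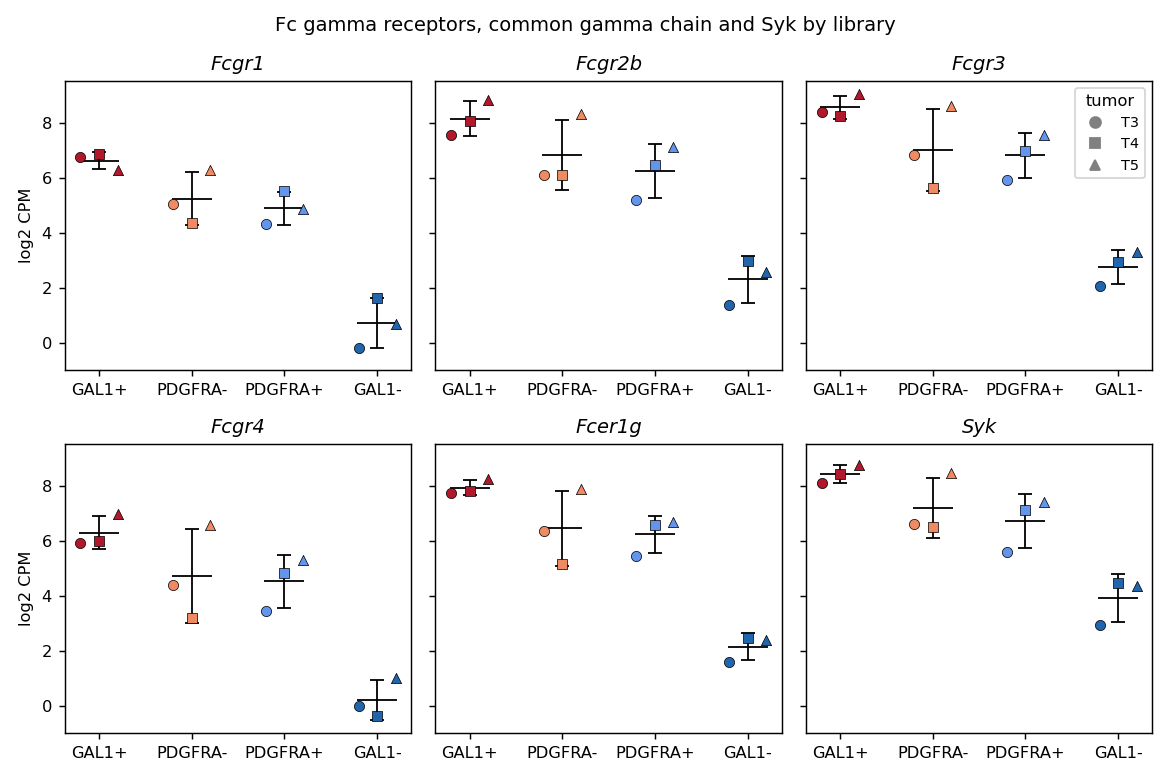
Log2 CPM (vertical axis) of the 6 genes in each library, by sorted population (horizontal axis). Symbols mark the tumor, horizontal bars the mean of 3 tumors and whiskers the SD; GAL1- libraries lie lowest in every panel, and the T5 PDGFRA- library (triangle) lies near the GAL1+ libraries.

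Levels between genes were compared per kilobase of exon, with exon lengths from GENCODE vM21 protein-coding transcripts. In GAL1+ cells *Fcer1g* was at 332 ± 65.8 CPM per kb (SD, n = 3 tumors) and *Fcgr3* at 293 ± 89.8 CPM per kb, which lay within their spread of each other. *Fcgr2b* followed at 80.8 ± 36.1, *Fcgr4* at 67.0 ± 30.2 and *Syk* at 58.2 ± 12.9 CPM per kb, 3 neighbours that did not differ beyond their spread. *Fcgr1* was lowest at 39.2 ± 7.90 CPM per kb.

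The same order of the 6 genes held in the means of PDGFRA+ and PDGFRA- cells, from *Fcer1g* at 108 ± 43.1 to *Fcgr1* at 12.3 ± 5.05 CPM per kb in PDGFRA+ cells. In GAL1- cells *Syk*, at 2.80 ± 1.34 CPM per kb, came above *Fcgr2b* at 1.45 ± 0.71 and *Fcgr4* at 1.01 ± 0.54 CPM per kb, while *Fcer1g* was at 6.16 ± 1.84 and *Fcgr1* at 0.72 ± 0.43 CPM per kb. The gene models behind the deposited counts were of another build, so these lengths are approximate.

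**Figure D2:**
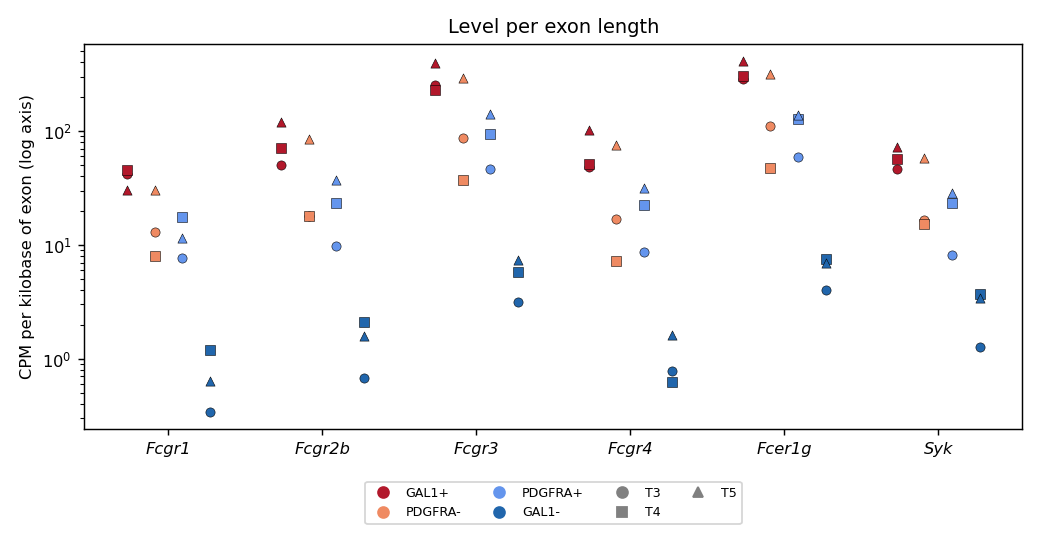
CPM per kilobase of exon on a log axis for the 6 genes, with color for the sorted population and symbol for the tumor. *Fcer1g* and *Fcgr3* lie highest in each population, and *Syk* takes a higher place among the 6 genes in GAL1- cells than in the other populations.

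*Fcgr2b*, *Fcgr3*, *Fcgr4* and *Fcer1g* lie on mouse chromosome 1, *Fcgr1* on chromosome 3 and *Syk* on chromosome 13. RefSeq start windows (GRCm38.p6) were found for all 6 genes. *Fcgr3* and *Syk* each had 2 starts in the table. The 100 bases before the first start are shown for each gene, and before the second start of *Syk* (that of *Fcgr3* overlaps its first window), because the genes moved together and the window holds, in some of them, the letters GAGGAA of the box bound by the myeloid factor PU.1. Each window is written 5′ to 3′ on the gene's strand, with a match to GAGGAA, or to TTCCTC on the other strand, in capitals.
Fcgr1, chr3:96293970-96294069, minus strand: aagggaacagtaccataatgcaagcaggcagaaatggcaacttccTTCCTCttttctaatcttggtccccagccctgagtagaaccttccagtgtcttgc
Fcgr3, chr1:171059404-171059503, minus strand: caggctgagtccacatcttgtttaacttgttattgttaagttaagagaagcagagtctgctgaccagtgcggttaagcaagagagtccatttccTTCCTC
Fcgr4, chr1:171018826-171018925, plus strand: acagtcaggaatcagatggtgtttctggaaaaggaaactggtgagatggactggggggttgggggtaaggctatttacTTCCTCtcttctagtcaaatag
Fcgr2b, chr1:170976072-170976171, minus strand: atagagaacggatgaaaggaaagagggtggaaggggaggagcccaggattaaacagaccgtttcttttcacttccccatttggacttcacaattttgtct
Fcer1g, chr1:171234350-171234449, minus strand: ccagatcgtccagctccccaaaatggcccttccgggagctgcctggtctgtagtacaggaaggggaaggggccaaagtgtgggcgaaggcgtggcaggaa
Syk, chr13:52583337-52583436, plus strand: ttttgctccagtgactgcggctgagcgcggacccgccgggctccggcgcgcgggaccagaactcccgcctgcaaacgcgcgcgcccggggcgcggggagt
Syk second start, chr13:52596782-52596881, plus strand: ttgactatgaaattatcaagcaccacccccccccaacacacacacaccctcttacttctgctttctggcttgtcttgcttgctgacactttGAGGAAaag

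The letters began 55 bases before the start in *Fcgr1*, 6 bases before it in *Fcgr3* (15 before its second start), 22 bases before it in *Fcgr4* and 9 bases before the second start of *Syk*. They were not found in the windows of *Fcgr2b*, *Fcer1g* and the first start of *Syk*. Of 32851 start windows of this length in the table, 9.82% held GAGGAA on either strand. The longer GAGGAAGT was in the *Fcgr4* window and in 1.15% of all windows, and each of its matches is also a match to GAGGAA. These matches describe letters and not binding.

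All 6 genes were higher in GAL1+ than in GAL1- cells, in 3 of 3 tumors and with no overlap between the groups. limma, fitted on all genes with the tumor as a block, called 6 of 6 at a Benjamini-Hochberg adjusted p under 0.05, in a comparison where 58.2% of all genes tested were called, 28.9% as higher and 29.3% as lower. Groups of 3 did not overlap for 60.6% of all genes. The median log2 fold change was 5.83 over the 6 genes and −0.03 over all genes.

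The activating receptors differed by log2 fold changes of 5.92 for *Fcgr1* (standard error 0.51, adjusted p = 4.05e-05), 5.81 for *Fcgr3* (standard error 0.45) and 6.09 for *Fcgr4* (standard error 0.48). *Fcer1g* differed by 5.79 (standard error 0.47) and *Fcgr2b* by 5.86 (standard error 0.38). Thus the 4 receptors and the gamma chain were 55.2-fold to 68.1-fold higher in GAL1+ cells, and their absolute fold changes ranked from 43 to 70 among the 18180 genes. The difference for *Syk* was smaller, at 4.50 (standard error 0.37, 22.7-fold, rank 345). Apart from *Fcgr1*, each of these genes had the adjusted p of 3.93e-05, the smallest over all genes.

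The GAL1- values rested on few reads, 18.1 to 50.0 per library for *Fcgr4* and 24.3 to 73.5 for *Fcgr1*, against 808 to 1585 and 970 to 1863 in GAL1+ cells. *Syk* had 211 to 535 reads per GAL1- library. The authors counted multi-mapping reads as fractions, and *Fcgr2b*, *Fcgr3* and *Fcgr4* are related in sequence, so the split of reads among these paralogs is uncertain. Recovered reads, with a tolerance of 0.01 reads, were not whole numbers in 12 of 12 libraries for *Fcgr3*, 10 for *Syk*, 7 for *Fcgr2b*, 6 for *Fcgr1* and 2 each for *Fcgr4* and *Fcer1g*. Over all genes 41.3% to 59.2% of recovered values per library were whole, so fractions were not particular to the paralogs.

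Other cell type markers moved with these genes. All 12 pan-leukocyte markers were higher in GAL1+ than in GAL1- cells (median log2 fold change 4.39). Their summed level was 2830 to 3853 CPM in GAL1+ cells and 719 to 3080 CPM in PDGFRA- cells, against 647 to 1517 CPM in PDGFRA+ cells and 85.5 to 240.0 CPM in GAL1- cells. All 12 macrophage markers (median 5.86) and all 10 microglia markers (median 4.45) were higher as well. None of these markers was at or under the floor in all 3 libraries of a population. Summed macrophage markers ran from 4144 to 4778 CPM in GAL1+ cells and from 43.2 to 133 CPM in GAL1- cells, and summed microglia markers from 2189 to 3483 CPM and from 256 to 542 CPM. *Sparc* was the highest of the microglia markers in GAL1- cells, at a mean log2 CPM of 7.95, and differed by only 1.13. *Ptprc*, the gene of CD45, was at a mean log2 CPM of 8.65 in GAL1+ and 4.60 in GAL1- cells. *Lgals1*, the gene of GAL1, was at 7.66 (7.41 to 7.95) in GAL1+ and 6.38 (6.05 to 6.81) in GAL1- cells. *Egfr*, counted on the mouse genome, was at 8.41 in GAL1+ and 10.51 in GAL1- cells. In bulk samples a change in the number of cells of a type cannot be told apart from a change in RNA per cell.

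Markers of other cell types were mixed. Of 7 measured neutrophil markers 3 were called higher in GAL1+ cells (median 0.76), as were 4 of 6 dendritic cell markers (median 0.90) and 3 of 8 NK and T cell markers (median 0.10). The measured B cell marker *Ebf1* was higher by 2.44, the measured mast cell marker *Kit* was lower (−0.77), and of 2 platelet markers *Pf4* was higher by 6.72 while *Itga2b* was not called at −0.02. All 10 endothelial markers were higher (median 2.44), and all 10 glioma and oligodendrocyte precursor markers were lower (median −2.42). The part of these cells in the levels of the Fc receptor genes was not tested.

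The 6 genes were also set against the mean log2 CPM of the marker lists in each library, as a description. Relative to the macrophage mean, *Fcer1g* lay at 0.55 ± 0.27 in GAL1+ cells and 0.63 ± 0.23 in GAL1- cells, with 0.54 ± 0.43 in PDGFRA- and 0.67 ± 0.22 in PDGFRA+ cells (SD, n = 3 tumors). *Fcgr1* ranged between −0.80 and −0.66 and *Fcgr3* between 1.11 and 1.26 in the population means. These ratios to the macrophage mean thus stayed within their spread while the log2 CPM of the same genes differed by more than 5 between GAL1+ and GAL1- cells.

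*Syk* did not keep that ratio. Relative to the macrophage mean it was at 1.04 ± 0.34 in GAL1+, 1.27 ± 0.47 in PDGFRA- and 1.15 ± 0.52 in PDGFRA+ cells, and at 2.40 ± 0.19 in GAL1- cells. Relative to the pan-leukocyte mean it was at 0.88 ± 0.15, 0.92 ± 0.31, 0.76 ± 0.38 and 0.80 ± 0.17 in those populations. The other 5 genes stood lower against the pan-leukocyte mean in GAL1- cells, with *Fcer1g* at −0.98 ± 0.31 against 0.39 ± 0.16 in GAL1+ cells and *Fcgr4* at −2.91 ± 1.05 against −1.25 ± 0.47. Relative to the mean of the 10 microglia markers all 6 genes stood lower in GAL1- than in GAL1+ cells, *Syk* at 0.97 ± 0.51 against 1.59 ± 0.46, *Fcer1g* at −0.80 ± 0.35 against 1.10 ± 0.50 and *Fcgr1* at −2.23 ± 0.28 against −0.19 ± 0.31. In the microglia list *Sparc* and *Sall1* had the smallest differences, at 1.13 and 0.66 higher in GAL1+ than in GAL1- cells. Their mean log2 CPM in GAL1- cells was 7.95 and 5.06, so they weigh on the microglia mean there. Ratios without them were not computed. Which ratios were level therefore depended on the marker list and on its members.

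**Figure D3:**
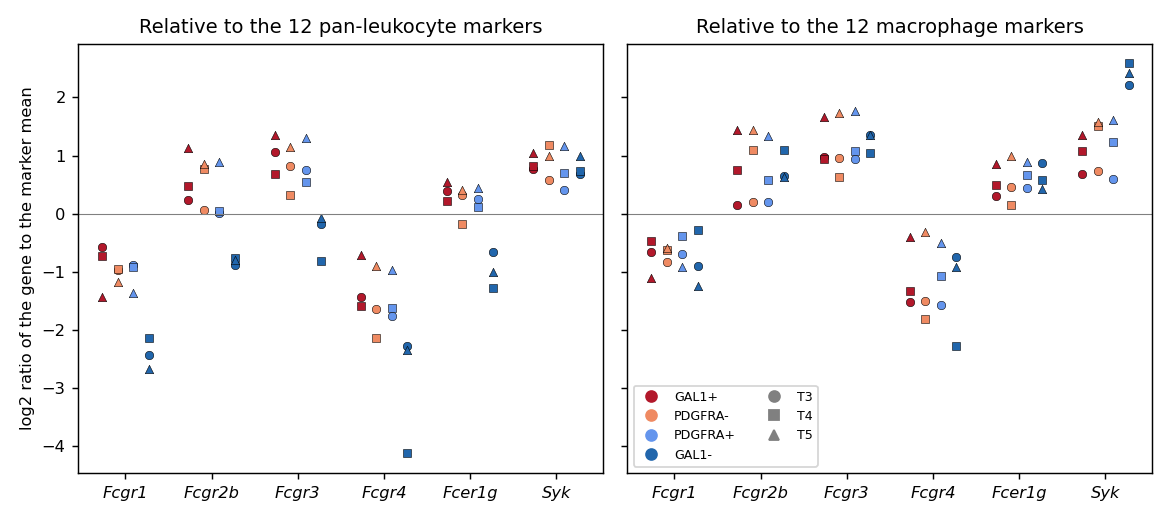
Log2 ratio of each gene to the mean of 12 pan-leukocyte markers (left) and of 12 macrophage markers (right) in each library, with color for the population and symbol for the tumor. The 5 receptor and adaptor genes are lower in GAL1- libraries on the left and level across populations on the right, while *Syk* is level on the left and higher in GAL1- libraries on the right.

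Between genes, the log2 ratio of *Fcgr3* to *Fcer1g* varied least, with an SD of 0.18 over the 12 libraries and population means of 0.57 to 0.64. The widest was that of *Fcgr4* to *Syk*, with an SD of 0.87. The log2 ratio of *Syk* to *Fcer1g* was 0.37 to 0.59 in the GAL1+ libraries and 1.33 to 2.0 in the GAL1- libraries. The ratio of *Syk* to each of the other 5 genes was higher in all GAL1- libraries than in any GAL1+ library, by a mean of 1.28 (against *Fcer1g*) to 1.58 (against *Fcgr4*). All 5 ratios share *Syk*, so they are not independent. The share of such ratios over all genes was not computed, and single genes did not overlap between these groups for 60.6% of all genes. For each of these 5 comparisons the two-sided exact permutation test, which did not pair the tumors, gave p = 0.1. That is the smallest that 3 against 3 samples allow. It follows from groups that do not overlap, so it adds nothing to the ranges.

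By the SD of the log2 ratio over the 12 libraries, among 13230 genes, the genes most like *Fcer1g* were *Ms4a6c* (0.14), *Ms4a6d* (0.18) and *Fcgr3* (0.18). Those most like *Fcgr3* were *Ms4a6d* (0.14), *Ms4a6c* (0.16) and *Fcer1g*, and those most like *Fcgr4* were *Ms4a6d* (0.33), *Fcgr3* (0.34) and *Nlrc4* (0.37). *Fcgr1* was most like *Itgam* (0.25), *C3ar1* (0.27) and *Stab1* (0.31), and *Fcgr2b* was most like *Naip2* (0.24), *Cfb* (0.29) and *Cybb* (0.33). *Syk* was most like *Rasa4* (0.13), *Prkcd* (0.16) and *Lilrb4a* (0.17). *Fcgr3*, *Fcgr4* and *Fcer1g* shared genes among their 3, while the 3 of *Fcgr1*, of *Fcgr2b* and of *Syk* were each found with no other of the 6 genes. For scale, the SD of log2 CPM itself was 1.87 for *Syk* and 2.35 to 2.54 for the other genes.

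Genes that lie between *Fcgr2b* and *Fcer1g* on chromosome 1 were examined next, since 4 of the 6 genes share that stretch. RefSeq lists 42 genes from *Fcgr2b* to *Fcer1g*, and 8 measured genes among them were not Fc receptor genes. Of those 8, limma called 1 between GAL1+ and GAL1- cells (*Gm35090*, lower at −1.40) and did not call the other 7, where 58.2% of all genes were called. The median log2 fold change was 0.42, but 3 of the 8 are copies of one tRNA gene (0.42 to 0.44, standard error 0.50 to 0.51), which can share multi-mapping reads. *Sdhc*, a subunit of mitochondrial complex II, was at 0.02, *Tomm40l* at −0.27, and *Cfap126*, the highest of them, at 1.37 (standard error 0.56, adjusted p = 0.0607, limma). These genes were chosen by position alone.

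The rest of the Fc receptor pathway was read from lists of related genes, in the same comparison. Of 4 measured genes of other Fc receptors, 3 were higher in GAL1+ cells (median 5.07). They were *Fcrls* by 6.12, *Fcrlb* by 6.07 and *Fcgrt*, the neonatal receptor that recycles IgG, by 4.06. The cytosolic antibody receptor *Trim21* was not called at −0.40. Of 5 measured immunoglobulin chain genes, only *Ighm*, the heavy chain of IgM, was called (3.35 higher in GAL1+ cells), and the other 4 ran from −1.58 to −0.83.

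Of 12 measured genes in a list of other adaptors and myeloid receptors related to *Fcer1g* or *Tyrobp*, 11 were higher in GAL1+ cells (median 4.13). Most act through an ITAM adaptor, but the list also holds *Pirb*, an inhibitory receptor, *Hcst*, an adaptor without an ITAM, and *Clec7a*, which carries its own motif. *Siglech* is in this list and among the microglia markers. The largest difference was that of *Trem2*, a lipid-sensing receptor (6.23), and *Tyrobp*, the other ITAM adaptor of myeloid cells, differed by 5.13. *Cd247*, the zeta chain of T cells, was not called at 0.09. The T cell relative of *Syk*, *Zap70*, was not called either, at 0.19.

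The kinases that act at the ITAM were divided. Among 9 measured genes of Src and Syk family kinases, with their regulator *Csk* counted in, 4 were higher in GAL1+ cells and 3 were lower (median 0.19). *Fgr* (3.50) and *Lyn* (2.88), kinases known from myeloid cells, were among those that were higher, as was *Csk* (1.08), which restrains Src kinases. *Lck* (−1.10), *Yes1* (−1.01) and *Fyn* (−0.80) were lower, and *Src* was not called at 0.02.

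Downstream of *Syk*, 20 of 24 measured effectors were higher in GAL1+ cells, 1 was lower and 3 were not called (median 3.87). *Btk*, a Tec family kinase, showed the largest difference (5.34), and the T cell adaptor *Lat* was the smallest and not called (−0.22). Paralogs parted within this list, since *Plcg2*, the phospholipase C of B cells and myeloid cells, was higher by 4.24 while *Plcg1* was lower (−0.85). Similarly *Vav1*, the blood cell form of this Rac activator, was higher by 4.82 while *Vav3* was not called at −0.44. The GTPase gene *Rac2* was higher by 4.32 and its broadly expressed paralog *Rac1* by 0.56.

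Brakes on the pathway moved with it. Of 15 measured genes in a list of inhibitors, 14 were higher and 1 was lower in GAL1+ cells (median 3.67). The largest difference was that of *Cd22*, a lectin with inhibitory motifs (5.91). *Ptprc* is counted in this list, and *Ptprc* and *Ptpn6* are also among the pan-leukocyte markers, so the lists are not independent. *Inpp5d*, which encodes the SHIP1 phosphatase recruited by *Fcgr2b*, was higher by 4.33 and *Ptpn6*, which encodes SHP-1, by 4.49, while the gene of the related phosphatase SHP-2, *Ptpn11*, was lower (−0.33). All 5 genes of the phagocyte oxidase, which makes the oxidative burst, were higher, from *Ncf1* (4.45) to *Cybb* (5.38).

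**Figure D4:**
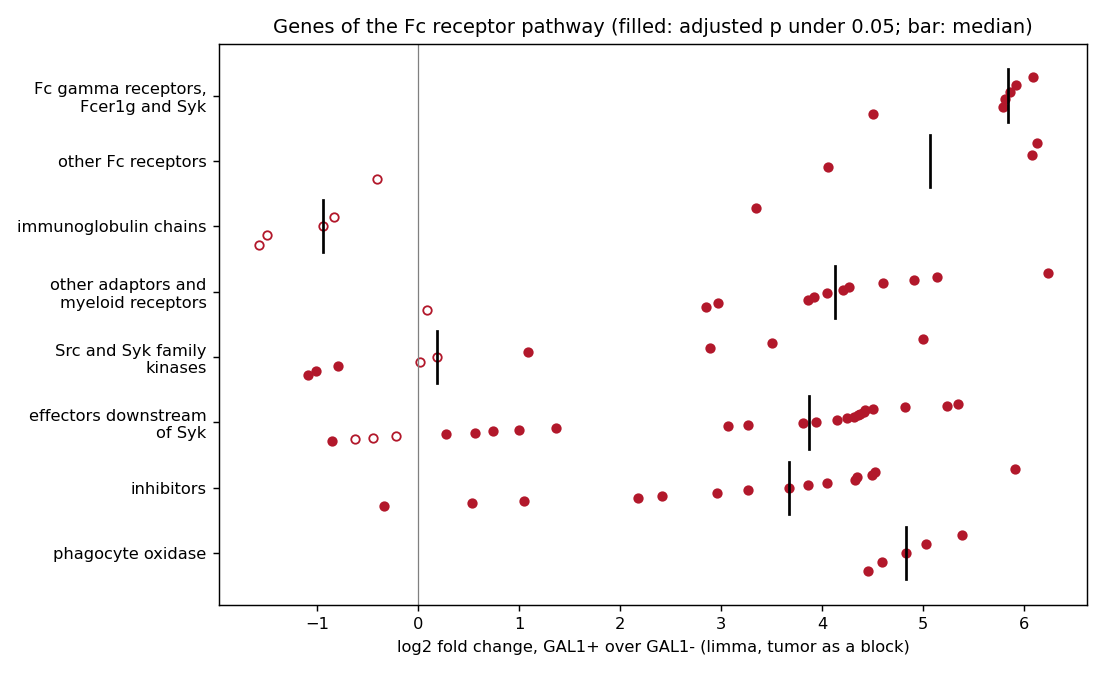
Log2 fold change of GAL1+ over GAL1- cells (horizontal axis) for each measured gene of the pathway lists (rows). Filled points passed an adjusted p under 0.05 in limma, open points did not, and the vertical bar marks the list's median, which is 5.83 for the 6 genes at the top and near 0 for the Src and Syk family kinases.

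The study compared PDGFRA+ with GAL1+ cells directly. All 6 genes were lower in PDGFRA+ cells, in 3 of 3 tumors and with no overlap between the groups, and limma called 6 of 6, where 38.0% of all genes were called (17.0% lower and 20.9% higher in PDGFRA+ cells). Groups did not overlap for 46.0% of all genes. The log2 fold changes were −1.73 for *Fcgr1* (standard error 0.51, adjusted p = 0.0253), −1.75 for *Fcgr3* (0.45, 0.0155), −1.78 for *Fcgr4* (0.48, 0.0180) and −1.70 for *Fcer1g* (0.47, 0.0197). *Fcgr2b* differed by −1.89 (standard error 0.38, adjusted p = 0.0057) and *Syk* by −1.70 (standard error 0.37, adjusted p = 0.0078).

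In this comparison the log2 fold changes of *Syk* and of the gamma chain were both −1.70. The calls depended on the fit: without the tumor block only *Fcgr1* was called (adjusted p over the 6 genes from 0.0462 to 0.123), with T3 left out none was called (0.108 to 0.210, with 2 at an unadjusted p under 0.05), and with T5 left out *Fcgr2b*, *Fcgr3* and *Syk* were called (0.0188 to 0.0594 over the 6 genes). The pan-leukocyte markers were called lower in PDGFRA+ cells for 11 of 12 genes (median −1.59), the macrophage markers for 12 of 12 (median −1.79) and the microglia markers for 5 of 10 (median −1.53), and 9 of 10 glioma and oligodendrocyte precursor markers were higher (median 2.0). Their part in the difference was not tested.

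The pathway lists in PDGFRA+ against GAL1+ cells held 18 lower genes of 24 effectors (median −1.47), 12 of 15 inhibitors (median −1.48), 7 of 12 adaptors and myeloid receptors (median −1.61) and 5 of 5 oxidase genes (median −1.65). Of the Src and Syk family kinases 4 were lower and 2 were higher, among them *Fgr* at −1.40 and *Fyn* at 0.53. None of the 5 immunoglobulin chain genes was called by limma, and 1 of 4 other Fc receptor genes was (*Fcgrt*, −1.30).

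PDGFRA- cells were compared with GAL1+ cells in the same way. limma called 4 of the 6 genes lower in PDGFRA- cells, where 20.1% of all genes were called and 6.91% were lower. The log2 fold changes were −1.33 for *Fcgr2b* (adjusted p = 0.0391), −1.54 for *Fcgr3* (0.0410), −1.59 for *Fcgr4* (0.0445) and −1.23 for *Syk* (0.0454). *Fcgr1* (−1.39, 0.0798) and *Fcer1g* (−1.47, 0.0524) did not pass. The groups overlapped for all 6 genes through the T5 PDGFRA- library, whereas 18.7% of all genes had groups that did not overlap, and without that library, an alternative chosen after seeing the data, 6 of 6 were called with log2 fold changes of −2.13 to −1.62. With the whole of T5 left out 6 of 6 were called too. Leaving out T3 or T4, or dropping the tumor block, left 0 of the 6 called by limma, with adjusted p from 0.120 to 0.289 over these fits and 2, 5 and 3 of the 6 at an unadjusted p under 0.05. In the same comparison 3 of 12 pan-leukocyte (median −1.21), 8 of 12 macrophage (median −1.55) and 7 of 10 microglia markers (median −1.74) were lower in PDGFRA- cells, and 7 of 10 glioma and oligodendrocyte precursor markers were higher (median 1.37). Their part in the difference was not tested.

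Both PDGFRA sorted populations exceeded GAL1- cells in all 6 genes, with GAL1- libraries as the shared comparator. In PDGFRA+ over GAL1- cells the log2 fold changes were 4.19 for *Fcgr1*, 4.06 for *Fcgr3*, 4.31 for *Fcgr4*, 4.09 for *Fcer1g*, 3.97 for *Fcgr2b* and 2.80 for *Syk* (standard errors 0.37 to 0.51). limma called 6 of 6 (adjusted p from 0.0016 to 0.0024), where 8.27% of all genes were called and 8.26% were higher. With T3 left out none of the 6 was called (each at an adjusted p of 0.0805, and 6 of 6 at an unadjusted p under 0.05), while the log2 fold changes were 2.86 to 4.73. Markers were higher in PDGFRA+ cells for 12 of 12 pan-leukocyte (median 2.80), 11 of 12 macrophage (median 4.23), 8 of 10 microglia (median 2.74) and 9 of 10 endothelial genes (median 1.95), and their part was not tested.

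In PDGFRA- over GAL1- cells the log2 fold changes were 4.53 for *Fcgr1*, 4.27 for *Fcgr3*, 4.50 for *Fcgr4*, 4.31 for *Fcer1g*, 4.53 for *Fcgr2b* and 3.27 for *Syk*. limma called 6 of 6 (adjusted p from 0.00047 to 0.00079), where 23.1% of all genes were called and 16.2% were higher. In both comparisons the groups did not overlap for any of the 6 genes, as for 24.6% of all genes against PDGFRA+ cells and 28.9% against PDGFRA- cells. *Syk* had the smallest difference of the 6 genes in each. Markers were higher in PDGFRA- cells for 12 of 12 pan-leukocyte (median 3.14), 11 of 12 macrophage (median 4.35), 7 of 10 microglia (median 2.64) and 9 of 10 endothelial genes (median 1.78), while 6 of 10 glioma and oligodendrocyte precursor genes were lower (median −1.02). The part of these cells was not tested here either.

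Within the PDGFRA sort no gene of the 6 was called, and none of all genes was (0 of 18180 in limma, 0% called, with 11.8% at an unadjusted p under 0.05, none of them among the 6). The difference, as PDGFRA+ over PDGFRA- on the log2 scale, ran from −0.56 for *Fcgr2b* (95% interval −1.42 to 0.29) to −0.19 for *Fcgr4* (−1.26 to 0.88). For *Syk* the difference was −0.47 (−1.31 to 0.36) and for *Fcer1g* −0.22 (−1.27 to 0.82). T4 went the other way from T3 and T5 for every gene, with *Fcer1g* at −0.90, 1.41 and −1.18 in T3, T4 and T5. With T4 left out the 6 log2 fold changes ran from −1.10 to −0.98, each at an unadjusted p under 0.05 and none past the adjusted threshold in limma. These intervals do not show that the populations are alike. The study, by contrast, reports differing genes in this sort, with inflammatory and immune terms enriched in PDGFRA- cells. *Pdgfra*, the gene of the sorted receptor, was not called either (1.60, standard error 0.41, adjusted p = 0.249), with log2 CPM of 9.95 to 10.81 in PDGFRA+ and 7.36 to 10.11 in PDGFRA- libraries, so the populations overlapped in it.

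The difference between the GAL1 sort effect and the PDGFRA sort effect was tested directly. It was positive for all 6 genes in 3 of 3 tumors, from 4.98 for *Syk* (standard error 0.53) to 6.42 for *Fcgr2b* (standard error 0.54). limma called 6 of 6 (adjusted p from 0.000261 to 0.000296), where 51.1% of all genes were called and 26.2% were higher. The same difference was called positive for 12 of 12 pan-leukocyte (median 4.77), 12 of 12 macrophage (median 6.0) and 9 of 10 microglia markers (median 4.45) and negative for 9 of 10 glioma and oligodendrocyte precursor markers (median −3.08), and their part in it was not tested.

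**Figure D5:**
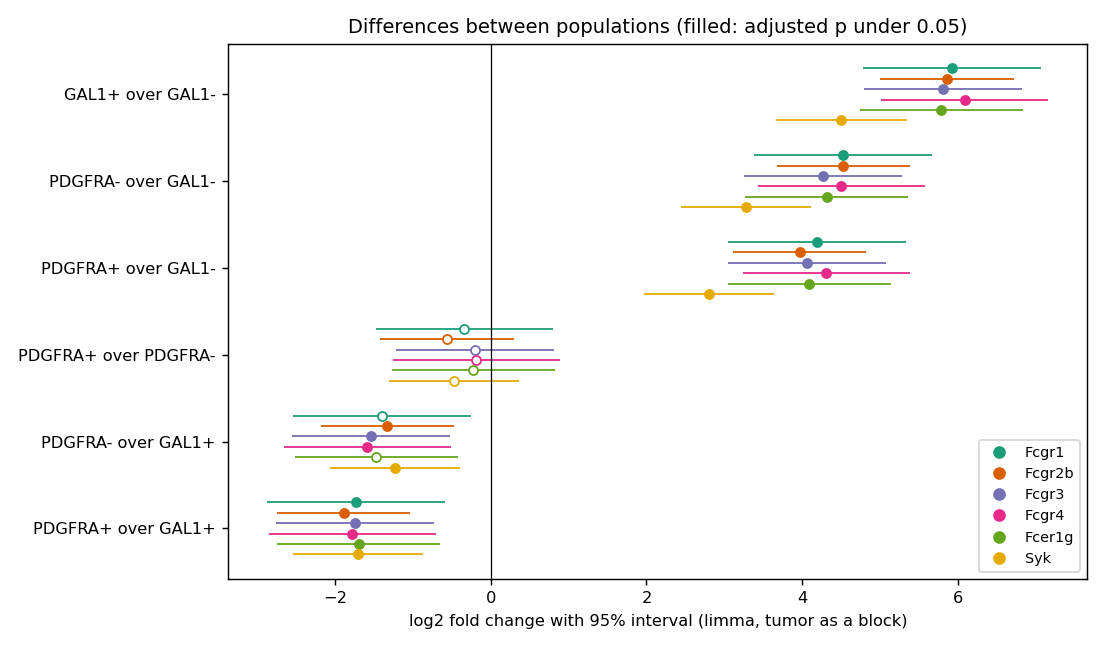
Log2 fold change (horizontal axis) of the 6 genes in each comparison of 2 populations (rows), with 95% intervals from limma. Filled points passed an adjusted p under 0.05; the 5 receptor and adaptor genes cluster in each row, *Syk* lies to their left in the 3 comparisons with GAL1- cells, and every interval of PDGFRA+ over PDGFRA- cells includes 0.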

How the data were processed

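RNA from cells sorted from 3 tumors into 4 populations was sequenced after SMARTer Stranded Total RNA-seq v3 Pico library preparation from 1 ng. The authors trimmed reads with fastp, aligned them with STAR to mm39, counted exons with featureCounts (multi-mapping reads as fractions), kept genes above 1 CPM in at least 3 samples, and applied TMM and voom. The deposited values are log2 CPM with an offset of 0.5. No columns were left unused. A library's reads were recovered by taking its lowest value as a count of 0.

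limma 3.58.1 in R 4.3.3 was fitted to all 18180 genes and 12 samples with a term per population and the tumor as a block (eBayes with a trend, Benjamini-Hochberg adjustment, threshold 0.05). The tumor numbers in the labels pair the libraries. Their deviations from population means had a Pearson r across genes of 0.140 to 0.662 (mean 0.486, 18 same-tumor pairs) and a mean of −0.243 for 36 different-tumor pairs. Deviations within a population sum to 0 over its 3 tumors, so the negative mean follows from the centring and adds no support. The 3 samples per population come from separate tumors.

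The 6 genes and the lists were chosen with earlier results of these data known. Named genes are the 6 members, the largest and smallest difference between GAL1+ and GAL1- cells of each list, genes whose role is described, and the 3 most alike genes per member. *Zap70*, *Rac1*, *Rac2*, *Vav3*, *Fcrlb*, *Sparc*, *Ptprc*, *Egfr*, *Lgals1*, *Pdgfra* and the neighbours on chromosome 1 were named after their values were seen. Alternatives were no block, only the compared groups, eBayes without trend or robust, vooma weights, a pseudocount of 1 CPM, a filter of log2 CPM above 1 in 3 samples, quantile normalization, median centring, leaving out each tumor and, added later, leaving out the T5 PDGFRA- library. The fit was tested on simulated data. Exact permutation tests used scipy 1.17.1 and figures matplotlib 3.10.9. Some genes and alleles are not reported here. Genome sequence of mm39 was not used here.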

Additional observations from a re-analysis of the deposited data

Results flagged for a closer look

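The effect of the GAL1 sort (GAL1+ over GAL1-) differed from that of the PDGFRA sort (PDGFRA+ over PDGFRA-) for each of the 6 genes, in a limma test of the difference itself. The difference was 6.26 for *Fcgr1*, 6.42 for *Fcgr2b*, 6.01 for *Fcgr3*, 6.28 for *Fcgr4*, 6.01 for *Fcer1g* and 4.98 for *Syk* on the log2 scale. It was positive in 3 of 3 tumors for every gene, and 51.1% of all genes were called in this test. The same difference was called for 12 of 12 pan-leukocyte and 12 of 12 macrophage markers, and their part in it was not tested.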

How the results depend on the processing

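In GAL1+ over GAL1- cells, in PDGFRA- over GAL1- cells and in the difference between the 2 sorts, 6 of 6 genes were called under every alternative run, with log2 fold changes of 4.16 to 6.26, 2.86 to 5.42 and 4.36 to 7.34. In PDGFRA+ over PDGFRA- cells limma called 0 under any, and at an unadjusted p under 0.05 the count was 6 with T4 left out and 0 under every other alternative. The fit without the replicate block, in which tumors were not paired, called 1 of 6 in PDGFRA+ over GAL1+ cells and 0 in PDGFRA- over GAL1+ cells, and it changed no other count over the 6 genes. Over all genes that fit called 3154 against 6900 in PDGFRA+ over GAL1+ cells, 725 against 3652 in PDGFRA- over GAL1+, 612 against 1504 in PDGFRA+ over GAL1- and 1444 against 4200 in PDGFRA- over GAL1- cells. In PDGFRA- over GAL1+ cells 0 of the 6 were also called without a trend in eBayes or after quantile normalization (6 at an unadjusted p under 0.05 in both); the cause was not tested. With each tumor left out in turn, the count ranged from 0 to 6 in PDGFRA+ over GAL1+, PDGFRA- over GAL1+ and PDGFRA+ over GAL1- cells.

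Over all genes the count called ranged, with all alternatives, from 2110 to 7446 in PDGFRA+ over GAL1+, from 0 (T4 left out, 3649 unadjusted) to 5837 (T5 PDGFRA- library left out) in PDGFRA- over GAL1+, from 0 (T3 left out, 2549 unadjusted) to 3386 (only the compared groups) in PDGFRA+ over GAL1-, from 920 (T5 left out) to 4765 in PDGFRA- over GAL1-, from 8071 to 10598 in GAL1+ over GAL1-, and from 5757 (T5 left out) to 9332 in the difference of sorts. Median centring moved the share of called genes that were higher from 55.1% to 40.8% in PDGFRA+ over GAL1+, from 65.6% to 46.9% in PDGFRA- over GAL1+ and from 70.2% to 51.4% in PDGFRA- over GAL1- cells, where quantile normalization gave 47.2%. Centring shifted the median of all genes to −0.15 in the first of these.

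The direction within the PDGFRA sort turned for some genes. With each tumor left out in turn, the value for PDGFRA+ over PDGFRA- cells (log2) ranged from −1.08 to 0.19 for *Fcgr1*, from −0.98 to 0.22 for *Fcgr3*, from −1.10 to 0.35 for *Fcgr4* and from −1.04 to 0.25 for *Fcer1g*. It was 0.15, 0.19 and 0.11 for *Fcgr3*, *Fcgr4* and *Fcer1g* without T3, and without the T5 PDGFRA- library alone it was 0.25 for *Fcgr1*, 0.30 for *Fcgr3*, 0.36 for *Fcgr4* and 0.32 for *Fcer1g*. The GAL1- values of *Fcgr4* and *Fcgr1* rest on the fewest reads, at 18.1 to 73.5 per library. GAL1- libraries held the most reads of the populations (21728280 to 24117541), and the cause of the low counts was not tested.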
